A study of Mus musculus with 6 samples.

Results

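The genes described here are 10 members of the growth-factor response: the ETS factors ETV1, ETV4 and ETV5, the zinc finger factors EGR1, EGR2 and EGR3, the immediate early genes IER2 and IER3, and the transcription factors MYC and KLF6. They were chosen by gene symbol from a table of 20323 gene rows, with earlier results of the same comparison known, so their changes are given as a description and support nothing by themselves. Each of the 10 symbols matched 1 row, and all 10 passed the filter on low counts that left 11970 genes for testing. The libraries came from RFB, which the labels describe as a fibroblast cell line of kidney. A first group of 3 libraries is labelled TGF-β, a cytokine that turns fibroblasts into matrix-producing cells, and a second group of 3 is labelled TGF-β with CXCL10, a chemokine whose receptor is CXCR3. The titles call the first group NC and the second CXCL10, with a volume of 5 µl, and do not name TGF-β. No label used here states the concentration or duration of either agent. By the group labels TGF-β is common to both groups, and no group without it was analysed here. The effect of TGF-β itself on these genes therefore cannot be read. The labels give the organism as mouse, yet every row carries a human gene identifier. The series text speaks of a SUV39H1 knockdown, which no sample label names. RFB is 1 line, and nothing says that the replicates were separate cultures, so the spread between them may be technical.

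ETV1, ETV4 and ETV5 form the PEA3 group of ETS factors. Receptor tyrosine kinases switch them on through the RAS-ERK cascade, which relieves them from the repressor Capicua (CIC). EGR1, EGR2 and EGR3 bind GC-rich DNA through zinc fingers and are induced within minutes of a growth signal by serum response factor (SRF) with ETS partners such as ELK1. They also induce their own corepressor NAB2. IER2 and IER3 are short immediate early genes, IER3 being an inhibitor of apoptosis and a target of NF-κB. MYC pairs with MAX to raise ribosome production and growth, and KLF6 is a Krüppel-like factor of the injury response.

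Depth ranged from 12838106 to 15587409 counts per library. Fibroblast markers summed to between 52480 and 62250 CPM (the usual count of a gene relative to library size, scaled by the trimmed mean of M values) in every library, with ranges that overlapped between the groups. Of 8 kidney epithelial markers CDH16, LRP2, UMOD and SLC34A1 had 0 counts, and the list summed to between 20.9 and 22.3 CPM with TGF-β and between 19.1 and 20.5 CPM with CXCL10. Endothelial markers summed to between 47.7 and 51.6 CPM, nearly all of it TEK, while PECAM1 and CDH5 averaged 0.51 and 0.05 CPM. Leukocyte markers summed to between 36.4 and 44.97 CPM, nearly all of it CD68, while PTPRC averaged 0.30 CPM and CD3E had 0 counts. As in any bulk sample, fewer cells of a kind and less RNA per cell cannot be told apart. One library stood apart from its group: TGF-β replicate 1 scored 5.54 on the first principal component, where TGF-β replicates 2 and 3 scored -28.3 and -29.5 and the CXCL10 libraries 9.67 to 32.8. Within its group it had the highest CPM for 6 of the 10 genes and the lowest for 3. The changes of the members are therefore also given without it. On the first principal component it is the TGF-β library nearest to the CXCL10 libraries. Leaving it out thus widens the contrast along that component by construction. Larger changes and added calls without it are a description and no support.

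With CXCL10, ETV4, EGR2, MYC and IER3 were higher in every library than in any TGF-β library, and EGR1 and EGR3 were lower in every library. These 4 and 2 genes stand beside 11.1% and 11.2% of all tested genes whose ranges were likewise parted upward and downward. The ranges of ETV1, ETV5, IER2 and KLF6 overlapped. No label states that libraries with the same replicate number belong together. The pairing used below was inferred from these same counts, and the fit without it is the principal one. With the libraries paired by replicate number, edgeR called 5 members higher (ETV1, ETV4, EGR2, IER3 and MYC) and 1 lower (EGR1) at an adjusted p under 0.05, where it called 9.71% of all tested genes higher and 8.04% lower. Without the pairing edgeR called 0 of the 10 members and 0% of all tested genes, although 4 members were higher and 2 lower at an unadjusted p under 0.05, as were 20.5% of tested genes in either direction. DESeq2 without the pairing called ETV4, EGR2 and MYC higher and EGR1 lower, beside 1.44% and 1.36% of tested genes. DESeq2 with the pairing called ETV4, EGR2, IER3 and MYC higher and EGR1 lower, beside 5.71% and 3.79%. In unpaired edgeR without TGF-β replicate 1 the calls were 6 members higher, ETV5 among them, and EGR1 lower, beside 10.7% and 8.61% of the 12145 genes tested there. In the authors' deposited table ETV4, EGR2 and MYC had an adjusted p under 0.05, with 0.0106, 0.0258 and 0.0307, and EGR1 had 0.0649; that table called 0.714% of its 15691 genes with a count higher and 0.618% lower. Since the choice of the members used this contrast, nothing is read from these counts.

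**Figure D1:**
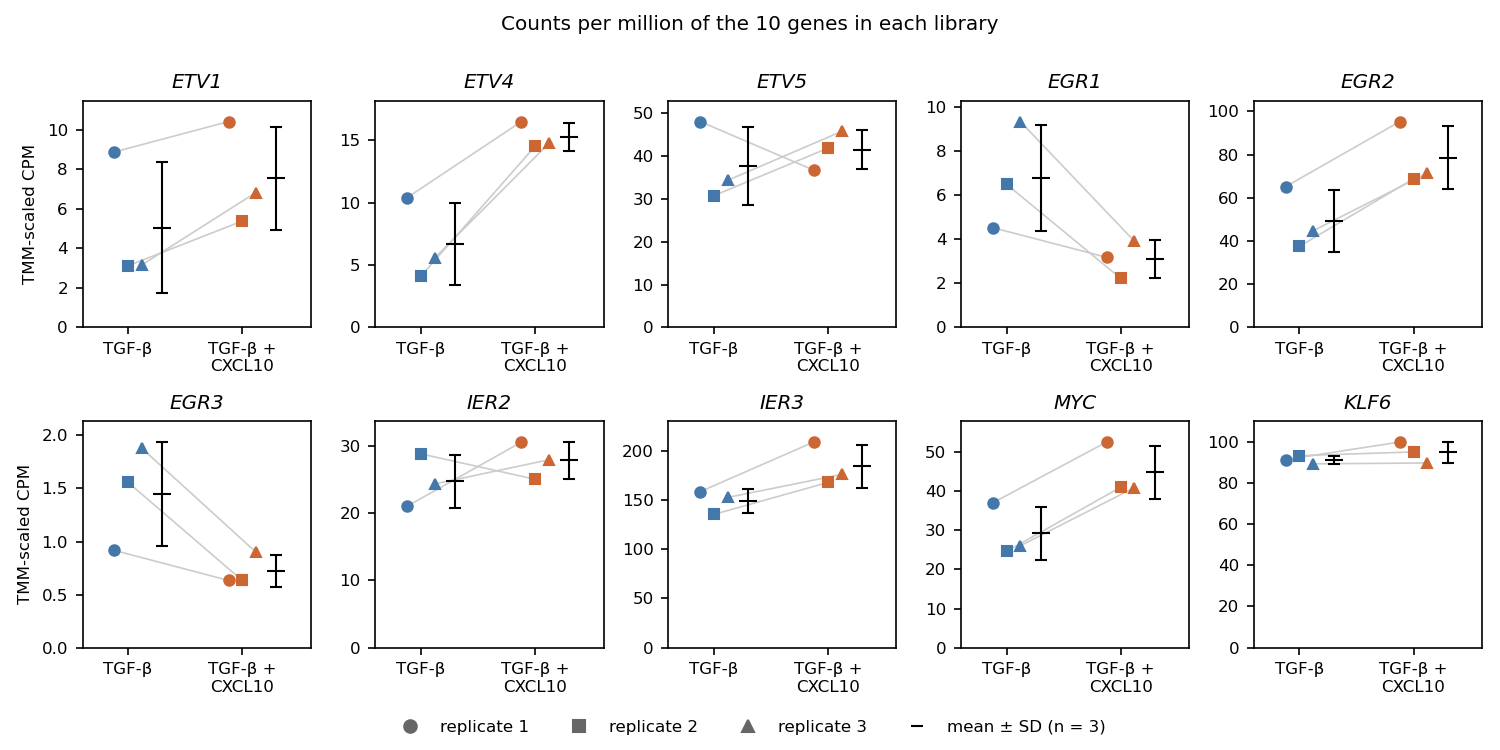
CPM of each gene (y axis, from 0, own scale per panel) in the 3 TGF-β libraries (blue) and the 3 TGF-β and CXCL10 libraries (orange), with grey lines between same-numbered libraries and bars for the mean ± SD. ETV4, EGR2, IER3 and MYC are parted upward and EGR1 and EGR3 downward, and replicate 1 (circles) is the highest library of both groups for ETV1, ETV4, EGR2, IER3 and MYC.

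The members differed widely in level. Per length of transcript, as FPKM, IER3 stood highest, with a median of 130 FPKM over the 6 libraries, above 96.3% of tested genes. EGR2 (24.1 FPKM), KLF6 (21.6), MYC (18.0), IER2 (14.6) and ETV5 (11.3) followed, each with a range that overlapped that of the next down to ETV5. ETV4 (6.44 FPKM), ETV1 (2.18) and EGR1 (1.33) were lower, again with overlapping neighbours, and EGR3 was the lowest at 0.34 FPKM, above 2.87% of tested genes. The order thus had 3 clear steps, below IER3, below ETV5 and above EGR3. EGR2 was the main EGR gene of these cells and ETV5 the main PEA3 gene.

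Among the PEA3 factors ETV4 changed most. ETV4 (ENSG00000175832) held 10.4, 4.11 and 5.56 CPM in TGF-β replicates 1 to 3 and 16.5, 14.5 and 14.8 CPM in CXCL10 replicates 1 to 3. The CXCL10 libraries lay close together, whereas the TGF-β libraries were spread, with replicate 1 about midway between the rest of its group and the CXCL10 libraries. The means were 6.70 ± 3.31 CPM and 15.3 ± 1.09 CPM (SD, n = 3 per group). The log2 change was 1.20 (SE 0.28) without pairing and 1.25 (SE 0.19) with it, and the same-numbered libraries differed by 0.66, 1.79 and 1.39. Without TGF-β replicate 1 the unpaired change was 1.67.

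ETV1 (ENSG00000006468), the scarcest of the PEA3 genes, held 8.87, 3.11 and 3.16 CPM with TGF-β and 10.4, 5.37 and 6.82 CPM with CXCL10. Replicate 1 was the highest library of both groups, and TGF-β replicate 1 lay above CXCL10 replicates 2 and 3. Each CXCL10 library exceeded its same-numbered partner, by 0.23, 0.76 and 1.08 (log2), and the paired change was 0.65 (SE 0.21). The paired call of ETV1 was narrow (edgeR adjusted p = 0.0467). It was lost when scaling by library totals alone (0.0530), in DESeq2 with the pairing (0.150) and without the libraries of replicate 2 (0.109) or 3 (0.263). Without TGF-β replicate 1 the unpaired change was 1.27 in place of 0.59. For ETV1 the deposited FPKM and counts were also not proportional: the ratio of CPM to FPKM varied 2.40-fold over the libraries, against a median of 1.12-fold over tested genes and a 90th percentile of 1.59-fold. The FPKM of TGF-β replicate 2 (1.91) exceeded that of CXCL10 replicate 2 (1.37), while by counts the second was the higher. The difference by log2(FPKM + 1), a scale that understates changes of low genes, was 0.19 (SE 0.23), and the log2 ratio in the authors' deposited table was 0.30.

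ETV5 (ENSG00000244405), the most abundant PEA3 gene, held 48.1, 30.8 and 34.3 CPM with TGF-β and 36.7, 41.9 and 45.8 CPM with CXCL10. The first pair went down and the other pairs went up, with log2 differences of -0.39, 0.44 and 0.41. ETV5 was the sole PEA3 gene for which TGF-β replicate 1 was the highest of all 6 libraries. Its paired change was 0.15 (SE 0.13) and it was not called. Without TGF-β replicate 1 the unpaired change of ETV5 was 0.35 and was called (edgeR adjusted p = 0.0482), and without both libraries of replicate 1 the paired change was 0.43.

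As a share of the summed FPKM of the 3 PEA3 genes, ETV4 took 24.2%, 16.2% and 23.0% with TGF-β and 38.6%, 33.3% and 31.9% with CXCL10. ETV5 took 65.0%, 69.4% and 67.4% and then 46.1%, 60.5% and 57.5%. These shares did not overlap between the groups, unlike the sum itself, which was 22.8, 13.2 and 12.7 FPKM with TGF-β and 20.2, 22.2 and 23.1 FPKM with CXCL10. The depth per library is the same for the genes of a share, so it does not enter these values. As the shares add to a whole, a larger share of ETV4 leaves less for ETV5, whose own level overlapped between the groups. The rise of ETV4 is used by the choice of the members, so these shares are a description.

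The EGR genes went opposite ways. EGR2 (ENSG00000122877), known for its role in myelination, held 65.2, 37.5 and 44.7 CPM with TGF-β and 95.3, 68.8 and 71.4 CPM with CXCL10. The lowest CXCL10 library lay only just above TGF-β replicate 1. The means were 49.1 ± 14.4 CPM and 78.5 ± 14.6 CPM (SD, n = 3 per group), with a log2 change of 0.68 (SE 0.19) without pairing and 0.69 (SE 0.07) with it. All same-numbered pairs rose by similar amounts, 0.55, 0.87 and 0.67.

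EGR1 (ENSG00000120738), the prototype of the family and an inducer of matrix genes in fibroblasts, held 4.51, 6.48 and 9.32 CPM with TGF-β and 3.16, 2.21 and 3.90 CPM with CXCL10. The counts behind these values were 64, 104 and 124 and then 45, 28 and 52. The 95% exact Poisson intervals, which cover counting error only, were 3.47 to 5.76 CPM for TGF-β replicate 1 and 2.91 to 5.11 CPM for CXCL10 replicate 3, so these neighbouring libraries could not be told apart at this depth. The log2 change was -1.12 (SE 0.31) without pairing and -1.10 (SE 0.24) with it, and the pairs differed by -0.49, -1.49 and -1.23. The paired call of EGR1 was lost without the libraries of replicate 3 (-1.01, edgeR adjusted p = 0.0856). It was also lost in the paired fit by log2(FPKM + 1) (-0.68, limma-trend adjusted p = 0.0593). Without TGF-β replicate 1 the unpaired change was -1.34.

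EGR3 (ENSG00000179388), itself a target of the same growth signals, was near the lower end of what was tested, with 13, 25 and 25 counts in the TGF-β libraries and 9, 8 and 12 in the CXCL10 libraries. These equalled 0.92, 1.56 and 1.88 CPM and 0.63, 0.63 and 0.90 CPM. The groups did not overlap, but TGF-β replicate 1, with an interval of 0.49 to 1.57 CPM, was within counting error of every CXCL10 library. The log2 change was -0.997 (SE 0.43) without pairing and -0.98 (SE 0.45) with it. EdgeR did not call it in either fit, nor did DESeq2 with the pairing, and DESeq2 without the pairing gave it no adjusted p. Its ratio of CPM to FPKM varied 2.20-fold over the libraries, and its difference by log2(FPKM + 1) was -0.17 (SE 0.12). EGR4, the remaining EGR gene, averaged 0.01 CPM and was not tested.

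As a share of the summed FPKM of these EGR genes, EGR1 took 5.57%, 12.2% and 14.3% with TGF-β and 2.69%, 2.61% and 4.76% with CXCL10, while EGR2 took between 82.8% and 93.2% and then between 94.1% and 96.8%. The FPKM of EGR2 was 16.7, 7.03 and 5.80 times that of EGR1 in the TGF-β libraries and 35.95, 36.8 and 19.8 times in the CXCL10 libraries. The ratio was thus higher in each CXCL10 library than in any TGF-β library, with TGF-β replicate 1 nearest to them. The fall of EGR1 and the rise of EGR2 are both used by the choice of the members, so this ratio is a description.

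**Figure D2:**
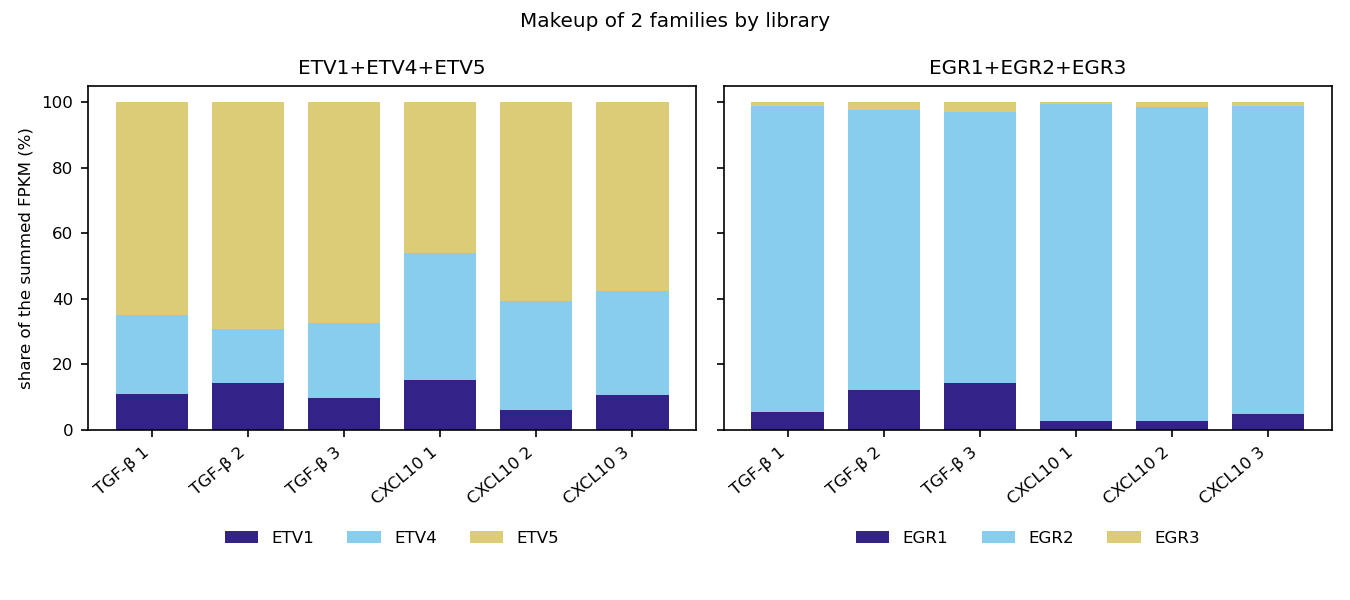
Share of the summed FPKM (y axis, percent) taken by each gene of the PEA3 group (left) and of the EGR genes (right) in each library (x axis: group and replicate number). ETV4 took 16.2% to 24.2% with TGF-β and 31.9% to 38.6% with CXCL10, and EGR1 5.57% to 14.3% and 2.61% to 4.76%.

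MYC (ENSG00000136997) held 37.1, 24.7 and 26.1 CPM with TGF-β and 52.7, 41.1 and 41.0 CPM with CXCL10. Replicate 1 was again the highest of each group, and no library overlapped with the other group. The means were 29.3 ± 6.82 CPM and 44.9 ± 6.75 CPM (SD, n = 3 per group). The log2 change was 0.62 (SE 0.16) without pairing and 0.63 (SE 0.08) with it, and the pairs were close together, at 0.51, 0.73 and 0.65.

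IER3 (ENSG00000137331) held 159, 136 and 153 CPM with TGF-β and 210, 168 and 176 CPM with CXCL10, a small rise. Its means were 149 ± 12.0 CPM and 185 ± 21.9 CPM (SD, n = 3 per group), so the spread within the CXCL10 group was not small beside the rise. Its log2 change was 0.31 (SE 0.09) without pairing and 0.31 (SE 0.05) with it. IER2 (ENSG00000160888) held 21.1, 28.8 and 24.4 CPM and then 30.6, 25.1 and 28.0 CPM. Its pairs differed by 0.54, -0.20 and 0.20, so that its direction was not the same in each pair, and its paired change was 0.18 (SE 0.12). KLF6 (ENSG00000067082) held 91.4, 93.3 and 89.4 CPM and then 99.98, 95.2 and 89.8 CPM. Its paired change was 0.06 (SE 0.06), the smallest of the 10 genes. Neither IER2 nor KLF6 was called under any of 18 alternatives, and neither was EGR3.

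**Figure D3:**
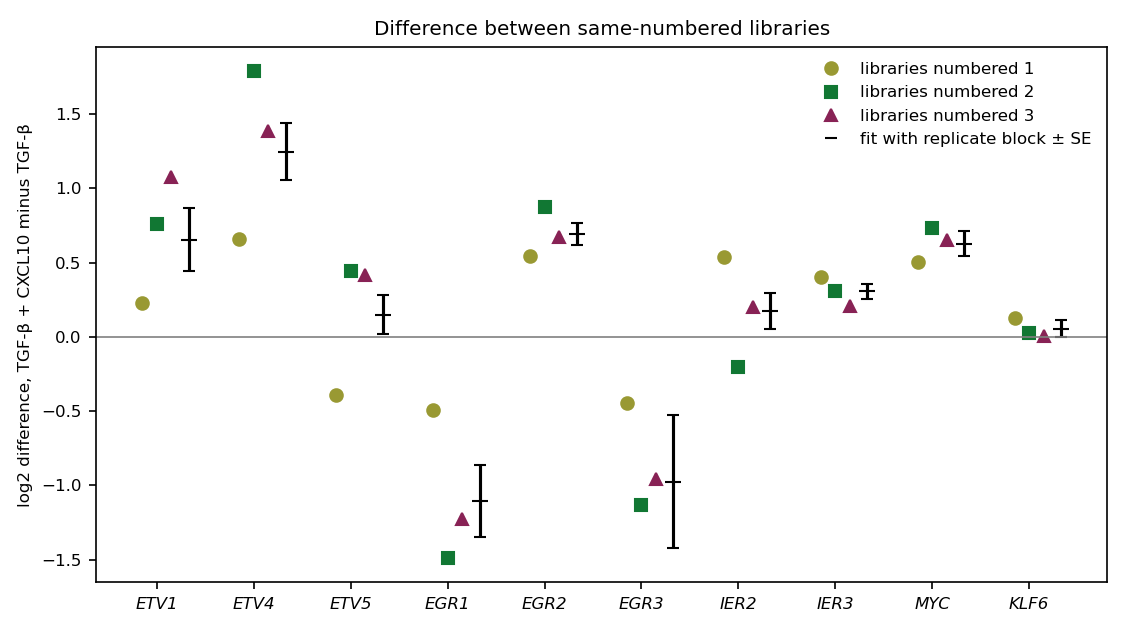
Log2 difference (y axis, TGF-β and CXCL10 minus TGF-β) between same-numbered libraries for each gene (x axis), with the change and SE of the paired fit in black. Of the 10 genes, 6 are above 0 in all pairs and 2 (EGR1 and EGR3) below 0 in all pairs, and for ETV1, ETV4, ETV5, EGR1, EGR2, EGR3 and MYC the pair numbered 1 lies nearest to 0.

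Of the 10 members 6 were higher in all pairs and 2 were lower in all pairs, beside 24.7% and 25.5% of tested genes. The shift of TGF-β replicate 1 from the mean of the other TGF-β libraries was of the same size as the change with CXCL10 for several members. It was 1.46 (log2) for ETV1, 1.10 for ETV4, 0.56 for ETV5, 0.67 for EGR2 and 0.55 for MYC, and -0.77 for EGR1 and -0.81 for EGR3. For IER3 it was 0.14, for IER2 -0.33 and for KLF6 0.00. Without TGF-β replicate 1 the unpaired changes were 0.94 for EGR2, 0.83 for MYC, 0.36 for IER3 and -1.24 for EGR3, which was not called. Those of IER2 (0.07) and KLF6 (0.06) were not called. Leaving out TGF-β replicate 2 or 3 instead gave unpaired changes of 0.93 or 1.09 for ETV4 and 0.32 or 0.35 for ETV1. The values were 0.01 or 0.08 for ETV5, 0.51 or 0.62 for EGR2 and 0.51 or 0.55 for MYC. IER3 had 0.25 or 0.34, IER2 0.30 or 0.17 and KLF6 0.07 or 0.05. EGR1 had -1.15 or -0.82 and EGR3 -0.94 or -0.77. These fits called 0 members. What sets TGF-β replicate 1 apart is not given in the labels, and its part in these results was not tested beyond the values without it.

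The genes around the members were read from the same fits, by lists that share some genes (FOSL1, SRF, NAB1, NAB2 and others). Here "called" refers to the paired edgeR fit at an adjusted p under 0.05. Counts from that fit compare with 9.71% higher and 8.04% lower and a median log2 change of -0.01 over all tested genes. Counts from DESeq2 without pairing compare with 1.44% and 1.36%, and those from unpaired edgeR without TGF-β replicate 1 with 10.7% and 8.61%. Without pairing edgeR called 0 genes of any list. The lists, like the members, were drawn up with earlier results of these data known. Their counts and medians are therefore a description and support nothing by themselves.

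On the list of genes that ERK signalling induces, most tested genes were higher. Of its 14 genes 12 were tested, and 10 of these rose and 0 fell, with a median log2 change of 0.76. The cyclin gene CCND1 rose by 1.28 (SE 0.14), from 247, 85.1 and 80.6 CPM to 388, 252 and 262 CPM. TGF-β replicate 1 lay just under the lowest CXCL10 library there. The feedback inhibitors of the cascade rose as well: SPRY4 by 1.21 (SE 0.18), the phosphatase gene DUSP4 by 1.05 (SE 0.12) and SPRY2 by 0.97 (SE 0.08). SPRY2 held 29.0, 17.1 and 18.6 CPM with TGF-β and 56.2, 35.3 and 35.1 CPM with CXCL10. Of the tested genes DUSP5 (0.87, edgeR adjusted p = 0.0541) and SPRED1 (0.06) were not called, and both were named after their values were seen. DESeq2 without pairing called 6 of the 12 higher, and without TGF-β replicate 1 unpaired edgeR called 10. The list's median in TGF-β replicate 1 was 0.50 above that of the other TGF-β libraries.

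Of 20 genes of the cascade itself, from RAS to the RSK kinases, 2 rose and 3 fell, with a median of -0.05. The RSK genes RPS6KA1 (-0.69, SE 0.17) and RPS6KA2 (-0.36, SE 0.06) and the scaffold gene KSR1 (-0.27, SE 0.07) fell. MAPK3, which encodes ERK1, rose by 0.22 (SE 0.06), and the adaptor gene SHC1, named after its value was seen, by 0.16 (SE 0.05). These calls depended on the fit. DESeq2 with the pairing called 0 of the 20 genes higher and 1 lower. Paired edgeR scaled by library totals alone called 0 higher and 3 lower. Paired edgeR called 0 higher without the libraries of replicate 2 or 3, and 3 higher without those of replicate 1.

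Of 19 regulators of the members 1 rose and 3 fell, with a median of -0.03. CIC, the repressor of the PEA3 genes, stood at 0.01 (SE 0.08), and SRF at -0.03 (SE 0.05), and neither was called. The CIC partner gene ATXN1 fell by 0.30 (SE 0.06), the SRF cofactor gene MRTFA by 0.20 (SE 0.06) and ZFP36, whose product destabilizes immediate early mRNAs, by 0.40 (SE 0.10). For ATXN1 the CPM ranges overlapped between the groups, and the difference by log2(FPKM + 1) was 0.02 (SE 0.22), so its FPKM showed no fall. NAB2, the EGR corepressor, rose by 0.30 (SE 0.10) and had 22.2, 21.4 and 27.7 CPM with TGF-β and 29.5, 27.8 and 30.1 CPM with CXCL10. This call depended on the fit. Of the 19 regulators 0 were called higher in DESeq2 with the pairing, and 0 in paired edgeR scaled by library totals alone. These fits called 1 and 3 lower. Paired edgeR also called 0 higher without the libraries of replicate 1 or 2, and 1 without those of replicate 3.

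Of 11 genes described as EGR1 targets 6 rose and 0 fell, with a median of 0.21. Among them were CD44 (0.54, SE 0.05), PDGFB (0.54, SE 0.08), the tissue factor gene F3 (0.45, SE 0.05) and TGFB1 (0.36, SE 0.06). PDGFA, named after its value was seen, stood at -0.06 and was not called.

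Of 31 other immediate early genes 27 were tested, and 13 rose and 3 fell, with a median of 0.22. MAFF (0.99, SE 0.13), CCN2 (0.82, SE 0.09) and FOSL1 (0.71, SE 0.10) were among those that rose, and BTG2 (-0.87, SE 0.09) fell. FOS stood at -0.19 (SE 0.31) and FOSB at 0.40 (SE 0.45), with mean levels of 2.68 and 1.25 CPM, and neither was called. Both were named after their values were seen. DESeq2 without pairing called 5 higher and 1 lower.

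Of 14 tested ETS factors outside the PEA3 group 0 rose and 2 fell, ETS2 by 0.29 (SE 0.05) and ERG by 1.59 (SE 0.51). The CPM ranges of ETS2 overlapped between the groups. DESeq2 called ETS2 with the pairing (adjusted p = 0.000378) and not without it (0.149). ERG, named after its value was seen, averaged 1.88 CPM with TGF-β and 0.57 CPM with CXCL10. Its call was narrow (edgeR adjusted p = 0.0483) and was lost in DESeq2 with the pairing (0.159). Of 10 tested KLF genes other than KLF6 1 rose, KLF16 (0.40, SE 0.11), and 3 fell, KLF11 (-0.84, SE 0.21), KLF9 (-0.58, SE 0.11) and KLF3 (-0.32, SE 0.07). The CPM ranges of KLF16 and KLF9 overlapped between the groups. DESeq2 with the pairing called KLF9 and KLF3 but not KLF16 (adjusted p = 0.0960) or KLF11 (0.0594).

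Of the MYC-MAX network 9 of 12 genes were tested. MAX stood at -0.04 (SE 0.08) and was not called. The genes of the MYC antagonists MXI1 (-0.64, SE 0.18) and MXD4 (-0.21, SE 0.06) fell, as did MLXIP (-0.31, SE 0.05), and MLX rose (0.35, SE 0.08). MYCN had 0 counts in every library, which allows up to between 0.187 and 0.237 CPM, and MYCL averaged 0.24 CPM, so MYC was the sole family member at a level that was tested. All 52 genes of a list of MYC targets, mostly of ribosome production, were tested: 19 rose and 1 (CDK4, -0.30, named after its value was seen) fell, with a median of 0.22. IPO4 rose by 0.72 (SE 0.09), RRP12 by 0.62 (SE 0.08), BYSL by 0.56 (SE 0.14) and the spermidine synthase gene SRM by 0.52 (SE 0.08). In the paired fit the number that rose was 11 without the libraries of replicate 2, beside 5.66% of all genes tested there, and 9 without those of replicate 3, beside 4.46%, and DESeq2 without pairing called 2. The list's median in TGF-β replicate 1 was 0.24 above that of the other TGF-β libraries, as large as its change with CXCL10.

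**Figure D4:**
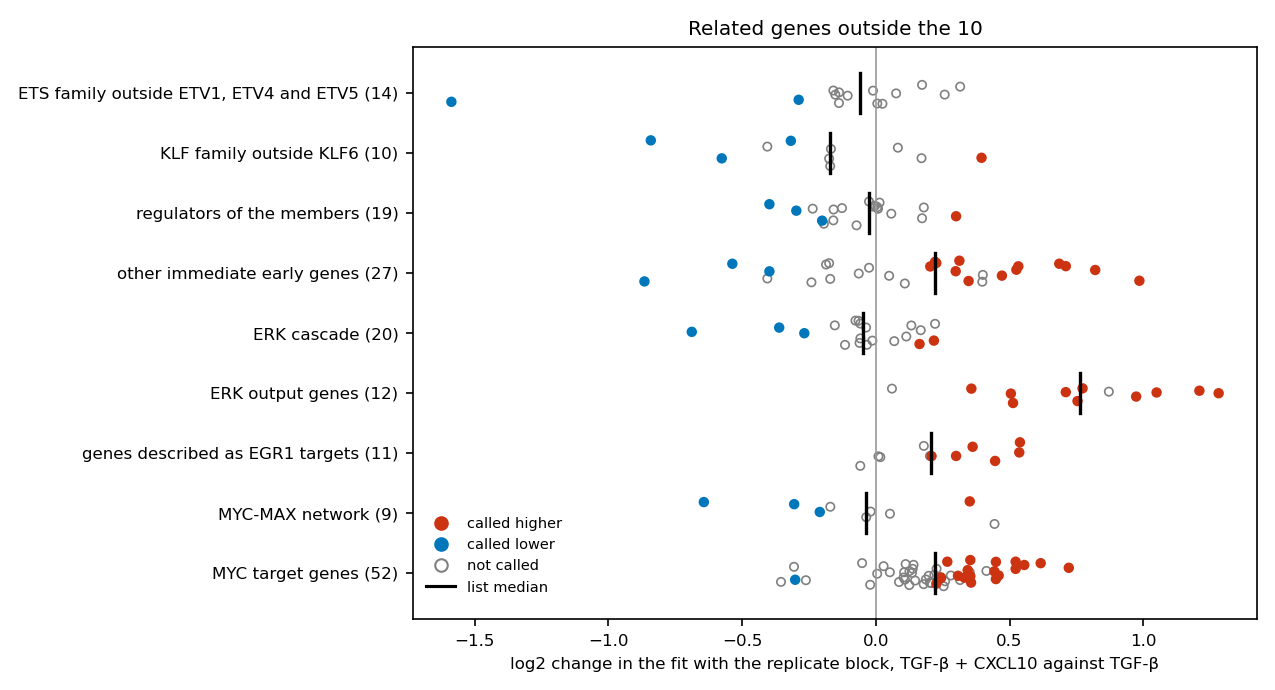
Log2 change of each tested gene in the paired fit (x axis) for the lists of related genes (y axis, number tested in brackets), with called genes filled and the list median as a bar. The ERK output genes have the highest median, 0.76, and the ERK cascade and the regulators have medians of -0.05 and -0.03.

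The expression profiles most like those of ETV4, ETV1 and EGR2, the 3 members with the widest range among those averaging at least 5 CPM (which leaves out EGR1 and EGR3), were found by the root mean square difference between log2 CPM profiles centred over the 6 libraries, among 9704 other genes averaging 5 CPM or more. For ETV4, whose range was 1.97 (log2), these were SPRY4 (difference 0.12), FOXD1 (0.13) and CEMIP (0.17). SPRY4 held 11.8, 4.23 and 7.14 CPM with TGF-β and 20.5, 15.6 and 15.4 CPM with CXCL10. For ETV1 they were TNFRSF11B (0.11), BDKRB2 (0.16) and CDCP1 (0.16), which were likewise highest in replicate 1 of each group. For EGR2 they were SMTN (0.05), PLAT (0.06) and IGFBP4 (0.07). With 6 libraries, these likenesses describe the shared position of the libraries.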

How the data were processed

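Per the labels' protocols, total RNA was isolated (RNeasy) and turned into mRNA libraries (SMARTer). Genome builds GRCm38 and mm10 stand in the submitters' processing notes, although the deposited table holds human gene identifiers. The sources used here do not give the aligner, counting tool or strand setting. No human reference was used, so no coordinates or sequences are printed. Per the file headers, the authors deposited for every gene the raw count and the FPKM in each library, their mean FPKM per group, the log2 ratio of these means, and a p-value with its adjusted p. The sources used here do not name the test behind that p-value.

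The deposited counts went into edgeR 4.0.16 under R 4.3.3, by its quasi-likelihood test with TMM scaling. Its filterByExpr step (min.count 10, min.total 15) left 11970 genes, over which p-values were adjusted by Benjamini-Hochberg and called under 0.05. Standard errors are the log2 change over the root of the F statistic. Depth of 12838106 to 15587409 counts makes 3 counts, the limit of a count of 0, equal to 0.187 to 0.237 CPM. The fit without a replicate block is the principal one and the paired fit the alternative. After subtracting group means, libraries with the same number correlated at 0.330, 0.121 and 0.163. Each was over 0.1, so the numbers were taken to pair the libraries. TGF-β replicate 3 correlated at 0.0825 with CXCL10 replicate 2, and TGF-β replicate 2 at 0.0803 with CXCL10 replicate 3. The matching of replicates 2 and 3 is therefore weakly grounded. This pairing comes from the same counts that were then tested and not from the labels, and it rests mainly on replicate 1. Other alternatives were DESeq2 1.42.0, limma-trend (limma 3.58.1) on log2(FPKM + 1), other scalings, no filter and left-out libraries. The scripts were tested on simulated data. Members and lists were chosen with earlier results of these data known. Genes named from a list are up to 4 with the largest change among those called in the paired fit with at least 5 CPM, besides CIC, NAB2, SRF and MAX. Other genes of the lists, among them EGR4, MYCN and MYCL, were named after their values were seen. For the likeness of profiles log2 CPM used a prior count of 2.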

Additional observations from a re-analysis of the deposited data

How the results depend on the processing

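The replicate block gave 1162 genes called higher and 962 lower in edgeR, with 5 and 1 members, where the fit without it gave 0 of each. Scaling by library totals alone with the block gave 877 and 1359 genes and 4 and 1 members. DESeq2 gave 172 and 163 genes and 3 and 1 members without the block and 684 and 454 genes and 4 and 1 members with it. Limma-trend on log2(FPKM + 1) with the block gave 337 and 352 genes and 4 and 0 members. Over the fits that leave out 1 library, or both libraries of a number with the block, the counts ran from 0 to 1533 genes higher and 0 to 1313 lower, and from 0 to 6 and 0 to 1 members. Among the 6 unpaired fits of this kind calls came solely without TGF-β replicate 1 (1302 and 1046 genes). With the block, leaving out replicate 1 gave 1533 and 1313 genes, replicate 2 gave 680 and 561 and replicate 3 gave 539 and 365. Without the block, RLE scaling, library totals, no filter and limma-trend each gave 0 calls. The sign of 9 members was the same in all 18 alternatives. IER2 reversed in 1, to -0.004 without both libraries of replicate 1. EGR3 has no adjusted p in DESeq2 without the block. Depth limits EGR3 and EGR1 most.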
